A study of Mus musculus with 6 samples.

Results

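The SOX genes described here are 10 listed members of a family of transcription factors: Sox1, Sox2 and Sox3 (group B1), Sox21 (B2), Sox4 and Sox11 (C), Sox5 (D), and Sox8, Sox9 and Sox10 (E). They were listed by symbol and not by a threshold on their measured values, although earlier results of these data were known. Each symbol matched 1 Ensembl gene ID among the 49315 of the count table, and all 10 were among the 18079 genes with enough reads to be tested. RNA-seq read counts came from the medial ganglionic eminence (MGE), the ventral forebrain zone that produces many cortical interneurons, of mouse embryos at embryonic day 14. The 3 libraries labelled KO came from Nkx2.1-Cre; Prdm16fl/fl; Ai14 embryos, and the 3 labelled WT from Nkx2.1-Cre; Prdm16+/+; Ai14 embryos. Both groups thus carried the Cre, which acts in Nkx2-1 expressing cells of the ventral forebrain, and the Ai14 fluorescent reporter allele. A library held the RNA of 3 pooled embryos, that is 6 whole eminences with no sorting of recombined cells.

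SOX proteins bind DNA through a shared domain, the HMG box, and members of 1 group resemble each other more than members of other groups. In the developing brain the SOXB1 factors keep neural progenitors undifferentiated, and SOX21 counteracts them. SOXE factors act in glial competence (SOX9) and in the oligodendrocyte lineage (SOX8 and SOX10). SOXC factors switch on neuronal genes in newborn neurons, and SOX5 of the SOXD group acts in progenitors and in the choice of neuron subtype.

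Library totals ran from 33188277 to 55552298 counts. Prdm16, the floxed gene, had 50.2 ± 4.02 CPM (counts brought to 1 library size, so that libraries can be compared) in the pools labelled KO and 49.4 ± 5.55 CPM in WT pools (SD, n = 3 each, as for all values below; edgeR adjusted p = 0.884). Counts were per gene, and no source at hand names the floxed exons, so the directions below rest on the label. The MGE genes Nkx2-1, Lhx6, Lhx8, Dlx1 and Dlx2 were present in each library, with summed levels of 2966 to 3409 CPM in pools labelled KO and 3416 to 3645 CPM in WT pools. KO 1 stood apart from KO 2 and KO 3 in some of the genes below. For the 10 SOX genes, results that change without KO 1 are given with and without it. For the other named genes no values without KO 1 are given. The labels describe the libraries as separate pools. Fewer cells of a type and less RNA per cell cannot be told apart in such tissue.

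Of the 10 SOX genes, 4 were higher in pools labelled KO (Sox9, Sox3, Sox2 and Sox21), 2 were lower (Sox8 and Sox1) and 4 did not pass the test (Sox4, Sox5, Sox10 and Sox11). The test was edgeR's quasi-likelihood test with Benjamini-Hochberg adjustment over all genes tested, at 0.05. In the same comparison 9.72% of all genes tested were higher and 10.5% were lower, 20.2% in all. The median log2 fold change of the 10 genes was 0.09, beside -0.0024 for all genes tested. The libraries labelled KO lay wholly above the WT libraries in 4 of the 10 genes and wholly below them in 2, which was so for 39.9% of genes tested (above for 20.3% and below for 19.6%). Changes ran in opposite directions within group B1 and within group E. Without KO 1, 4 of the 10 were higher and 3 lower, Sox4 being the third. Over all genes that fit called 3752 higher and 3804 lower, against 1758 and 1897 with all libraries. Without KO 3, 3 were higher, and without KO 2, WT 2 or WT 3 in turn 2 were higher (Sox3 and Sox9), each time with Sox1 and Sox8 lower. Over all genes those fits called 464 to 603 higher and 727 to 784 lower.

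**Figure D1:**
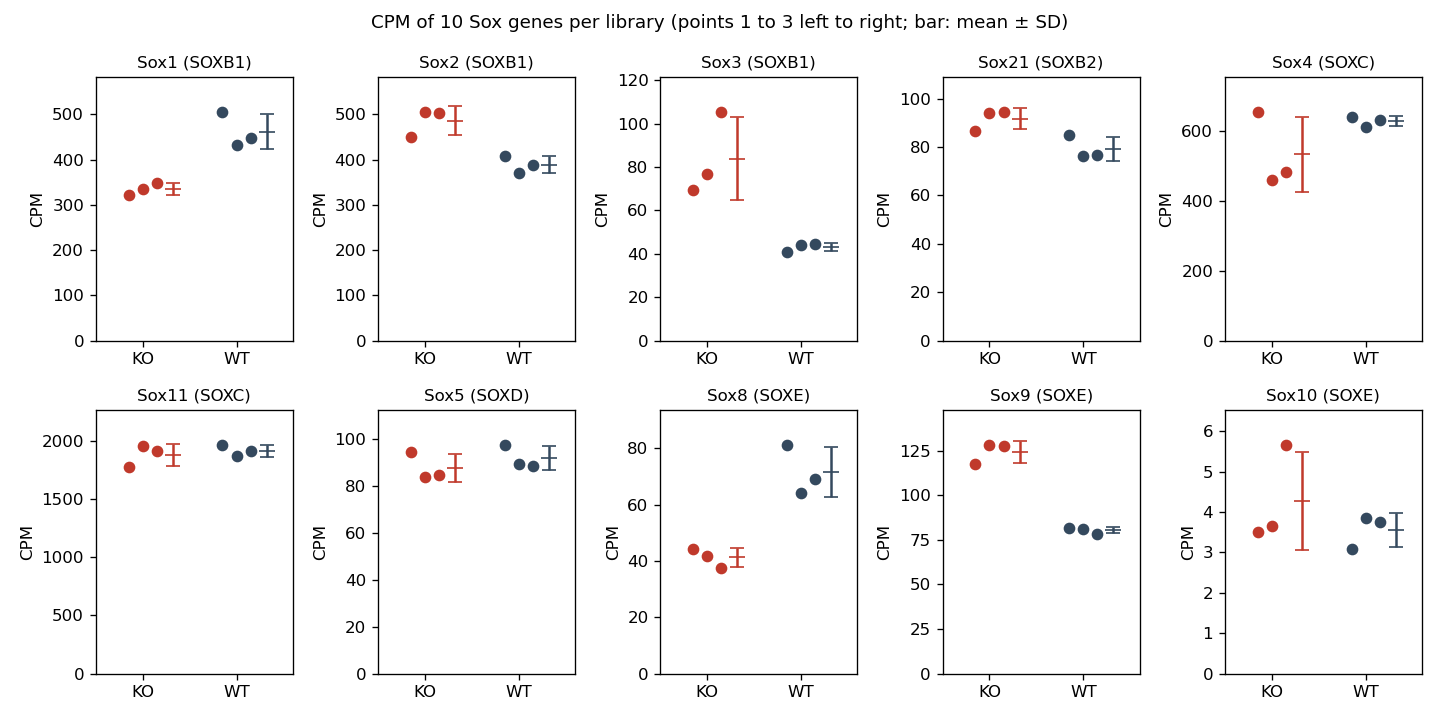
CPM (y axis, from 0) of each of the 10 Sox genes in the 3 KO libraries (left) and the 3 WT libraries (right), replicates 1 to 3 from left to right, with the mean ± SD beside them. The KO points of Sox9, Sox3, Sox2 and Sox21 lie above all WT points, those of Sox8 and Sox1 lie below them, and KO 1 lies away from KO 2 and KO 3 for Sox4.

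**Figure D2:**
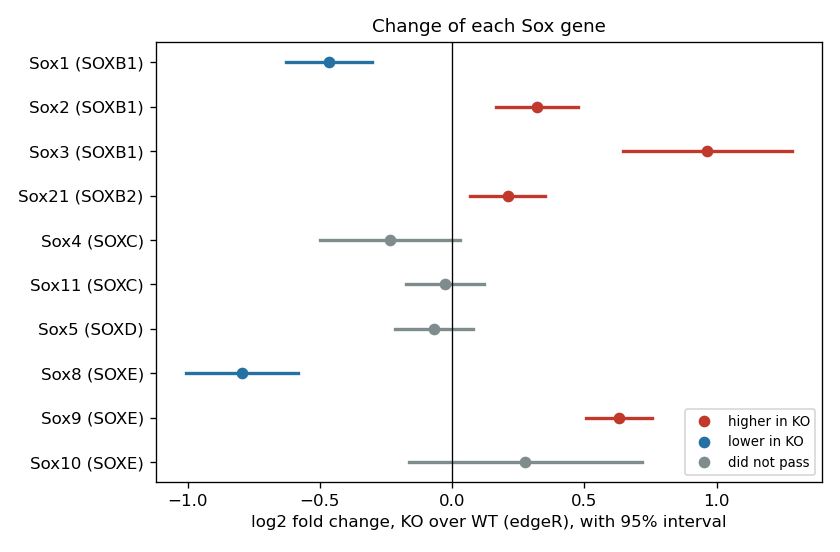
Log2 fold change, KO over WT (x axis), of each Sox gene from edgeR, with its 95% interval as a line. Sox3 (0.96) and Sox9 (0.63) have the highest values and Sox8 (-0.79) and Sox1 (-0.47) the lowest, and the intervals of Sox4, Sox5, Sox10 and Sox11 include 0.

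Among the SOXB1 genes, Sox2 and Sox3 rose and Sox1 fell. Sox2, whose product is a core factor of neural stem cells, is a single-exon gene (ENSMUSG00000074637, GRCm38 chromosome 3, 34650405 to 34652461). Sox1, whose product marks committed neural progenitors, is also encoded by 1 exon (ENSMUSG00000096014, GRCm38 chromosome 8, 12395295 to 12400126). Because these related genes moved apart, their promoter windows are shown, from 250 bases before the RefSeq start to 50 bases from it, on the plus strand of GRCm38.p6. They cover chr8:12395269-12395568 for Sox1 and chr3:34649745-34650044 for Sox2. Capitals mark matches to CCAAT and ACAAAG or their reverse complements (ATTGG and CTTTGT).
Sox1: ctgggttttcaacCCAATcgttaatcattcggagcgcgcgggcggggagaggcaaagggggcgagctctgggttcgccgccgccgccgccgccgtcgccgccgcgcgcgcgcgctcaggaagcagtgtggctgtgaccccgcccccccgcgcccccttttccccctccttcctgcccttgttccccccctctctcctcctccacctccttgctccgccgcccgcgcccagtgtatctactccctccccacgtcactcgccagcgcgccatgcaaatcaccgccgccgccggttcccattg
Sox2: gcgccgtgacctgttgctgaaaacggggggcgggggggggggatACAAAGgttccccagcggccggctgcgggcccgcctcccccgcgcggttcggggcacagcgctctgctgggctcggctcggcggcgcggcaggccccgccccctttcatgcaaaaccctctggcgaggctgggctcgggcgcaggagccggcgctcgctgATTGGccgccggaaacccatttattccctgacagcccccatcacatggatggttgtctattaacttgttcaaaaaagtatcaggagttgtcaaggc
CCAAT is the core of a common promoter box and ACAAAG a sequence that SOX proteins can bind. Sox2 holds ACAAAG 206 bases before its RefSeq start and ATTGG 46 bases before it, and Sox1 holds CCAAT 237 bases before its RefSeq start. Those starts, 34649995 for Sox2 and 12395519 for Sox1, differ from the gene starts given above, which are from GENCODE M21. By the GENCODE starts, the Sox2 window ends before the gene and most of the Sox1 window lies within its exon. Of 32851 mouse promoter windows of this length, 18.7% hold ACAAAG and 37.4% hold CCAAT on either strand. Both windows are rich in CpG, with 37 in Sox1 and 27 in Sox2, against a median of 7 over all windows. A match is a description of the letters and not of binding.

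Sox2 had 449, 506 and 502 CPM in KO 1 to 3, against 408, 369.9 and 387 CPM in WT 1 to 3. Every KO library lay above every WT library. The mean was 486 ± 32 CPM in pools labelled KO and 388 ± 18.9 CPM in WT pools, a 1.25-fold rise (log2 fold change 0.32, SE 0.07, edgeR adjusted p = 0.0141). The call did not hold when 1 library was left out, without KO 2 (edgeR adjusted p = 0.0651), without WT 2 (0.0776) or without WT 3 (0.0665), although the log2 fold change stayed between 0.29 and 0.32 in those fits. Sox2ot, a long noncoding transcript whose gene spans Sox2 on the same strand, had 185 ± 13.8 CPM in pools labelled KO and 177 ± 3.65 CPM in WT pools (edgeR adjusted p = 0.522). Exons of Sox2ot do not overlap Sox2 in the annotation used.

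Sox3, the X-linked SOXB1 gene (ENSMUSG00000045179, GRCm38 chromosome X, 60891366 to 60893430), had the largest fold of the 10. It had 69.5, 76.7 and 106 CPM in KO 1 to 3, against 40.9, 43.9 and 44.4 CPM in WT 1 to 3. All KO libraries exceeded all WT libraries, and KO 3 was the highest. The mean was 83.9 ± 19.1 CPM in pools labelled KO and 43.1 ± 1.88 CPM in WT pools, 1.95-fold higher (log2 fold change 0.96, SE 0.14, edgeR adjusted p = 0.00366). The pools differed in sex-linked transcripts. The summed level of the Y-linked genes Ddx3y, Eif2s3y, Kdm5d and Uty was 239, 125 and 0.362 CPM in KO 1 to 3 and 84.0, 46.7 and 83.2 CPM in WT 1 to 3. Xist, transcribed from the inactive X chromosome, had 1.92, 721 and 1424 CPM in KO 1 to 3 and 1043, 1168 and 1020 CPM in WT 1 to 3. With the Y-linked share as a covariate the log2 fold change of Sox3 was 1.07 (edgeR adjusted p = 1.27e-06), and without KO 3 it was 0.77 (edgeR adjusted p = 0.00064).

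Sox1 moved the other way. It had 321, 334 and 348 CPM in KO 1 to 3, against 506, 432 and 448 CPM in WT 1 to 3. No KO library reached the lowest WT library. The mean was 334 ± 13.3 CPM in pools labelled KO and 462 ± 39.1 CPM in WT pools, 1.38-fold lower (log2 fold change -0.47, SE 0.07, edgeR adjusted p = 0.00346). Sox1ot, the noncoding transcript whose gene spans Sox1 on the same strand, was lower as well, with 376 ± 25.5 CPM in pools labelled KO and 529 ± 37.4 CPM in WT pools (log2 fold change -0.49, SE 0.07, edgeR adjusted p = 0.00311). The annotation used lists no exon bases common to Sox1 and Sox1ot.

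Levels of different genes were compared per length as RPKM, which is CPM per kilobase of annotated exon. Summed over Sox1, Sox2 and Sox3, SOXB1 transcripts had 318, 352 and 367 RPKM in KO 1 to 3 and 323, 290.5 and 302 RPKM in WT 1 to 3, so the sums overlapped. Their make-up did not overlap. Sox1 gave 20.0 ± 0.731% of the SOXB1 RPKM in pools labelled KO and 31.3 ± 1.01% in WT pools. Sox2 gave 68.3 ± 1.68% in pools labelled KO and 61.9 ± 0.427% in WT pools, and Sox3 gave 11.7 ± 1.94% and 6.86 ± 0.631% in those groups. The RPKM ratio of Sox2 over Sox1 was 3.28, 3.56 and 3.39 in KO 1 to 3, against 1.89, 2.01 and 2.03 in WT 1 to 3. The ratio of Sox3 over Sox1 was 0.507, 0.537 and 0.711 in KO 1 to 3, against 0.189, 0.238 and 0.232 in WT 1 to 3. The exact permutation test (two-sided) gave each ratio a p of 0.1, which is the lowest value available with 3 libraries per group (0.133 after adjustment over 4 ratios).

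Sox21, the SOXB2 member (ENSMUSG00000061517, GRCm38 chromosome 14, 118233232 to 118237030), rose slightly. It had 86.7, 93.9 and 94.7 CPM in KO 1 to 3, against 84.9, 76.3 and 76.6 CPM in WT 1 to 3. The groups did not overlap, but KO 1 and WT 1 lay close together. The rise was 1.16-fold (log2 fold change 0.21, SE 0.06, edgeR adjusted p = 0.0437), and the call did not hold without KO 2 (edgeR adjusted p = 0.146), KO 3 (0.12), WT 2 (0.171) or WT 3 (0.157). The noncoding gene Gm4675 shares 713 exon bases with Sox21 on the other strand and had 3.04 ± 0.531 CPM in pools labelled KO and 2.5 ± 0.221 CPM in WT pools (edgeR adjusted p = 0.231). No source at hand gives the strand setting of the counting, so reads of such overlaps cannot be told apart.

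In group E, Sox9 rose, Sox8 fell and Sox10 did not pass. Sox9, whose product sustains progenitors and glial competence, is a gene of 3 exons (ENSMUSG00000000567, GRCm38 chromosome 11, 112782224 to 112787760). It had 117, 128 and 127 CPM in KO 1 to 3, against 81.5, 81.1 and 78.4 CPM in WT 1 to 3. The gap between the groups was far wider than the spread within either. The mean was 124 ± 6.14 CPM in pools labelled KO and 80.3 ± 1.68 CPM in WT pools, with the smallest p of the 10 (log2 fold change 0.63, SE 0.06, edgeR adjusted p = 0.00021). It was between 0.61 and 0.68 under each of the 17 alternatives tried.

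Sox8, a SOXE gene of the oligodendrocyte lineage and of other progenitors (ENSMUSG00000024176, GRCm38 chromosome 17, 25565892 to 25570686), fell. It had 44.4, 41.8 and 37.6 CPM in KO 1 to 3, against 81.3, 64.1 and 69.0 CPM in WT 1 to 3. Each KO library lay below each WT library. The mean was 41.3 ± 3.43 CPM in pools labelled KO and 71.5 ± 8.87 CPM in WT pools, 1.73-fold lower (log2 fold change -0.79, SE 0.09, edgeR adjusted p = 0.000875). The antisense gene 2810468N07Rik shares 329 exon bases with Sox8, or 10.6% of its exons, and had 4.78 ± 0.395 CPM in pools labelled KO and 5.91 ± 1.12 CPM in WT pools (edgeR adjusted p = 0.16).

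Sox10, the SOXE gene of oligodendrocyte precursors and neural crest derivatives (ENSMUSG00000033006, GRCm38 chromosome 15, 79154908 to 79165240), was barely expressed. It had 3.50, 3.65 and 5.67 CPM in KO 1 to 3, against 3.08, 3.85 and 3.75 CPM in WT 1 to 3. The groups overlapped and KO 3 was the highest library. The fold was 1.21, with a 95% interval from 0.892 to 1.65 (edgeR adjusted p = 0.338), from 129 to 313 counts per library. Without KO 3 the log2 fold change was 0.016. Of 4 listed markers of neural crest and Schwann cells 1 was tested and 0 passed, and their summed level was 1.49 to 2.03 CPM in pools labelled KO and 0.997 to 1.79 CPM in WT pools. Most of that sum was Mitf, a gene of pigment cells and other lineages (1.61 ± 0.262 CPM in pools labelled KO and 1.26 ± 0.4 CPM in WT pools, edgeR adjusted p = 0.309), while Foxd3 had 0 counts in all libraries.

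Summed SOXE levels were 43.7, 45.6 and 44.7 RPKM in KO 1 to 3 and 46.8, 41.4 and 42.3 RPKM in WT 1 to 3, again overlapping. Sox9 gave 67.3 ± 2.13% of that sum in pools labelled KO and 44.8 ± 2.62% in WT pools. Sox8 gave 29.6 ± 2.80% in pools labelled KO and 52.5 ± 3.07% in WT pools. The RPKM ratio of Sox9 over Sox8 was 1.99, 2.32 and 2.56 in KO 1 to 3, against 0.755, 0.954 and 0.857 in WT 1 to 3 (exact permutation test, two-sided p = 0.1). Per length of exon, Sox9 was thus above Sox8 in each library labelled KO and below it in each WT library. This crossing depends on the annotated exon lengths, 4135 bases for Sox9 and 3118 for Sox8. In CPM, Sox9 was above Sox8 in WT 1 to 3 too, with 81.5, 81.1 and 78.4 against 81.3, 64.1 and 69.0.

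**Figure D3:**
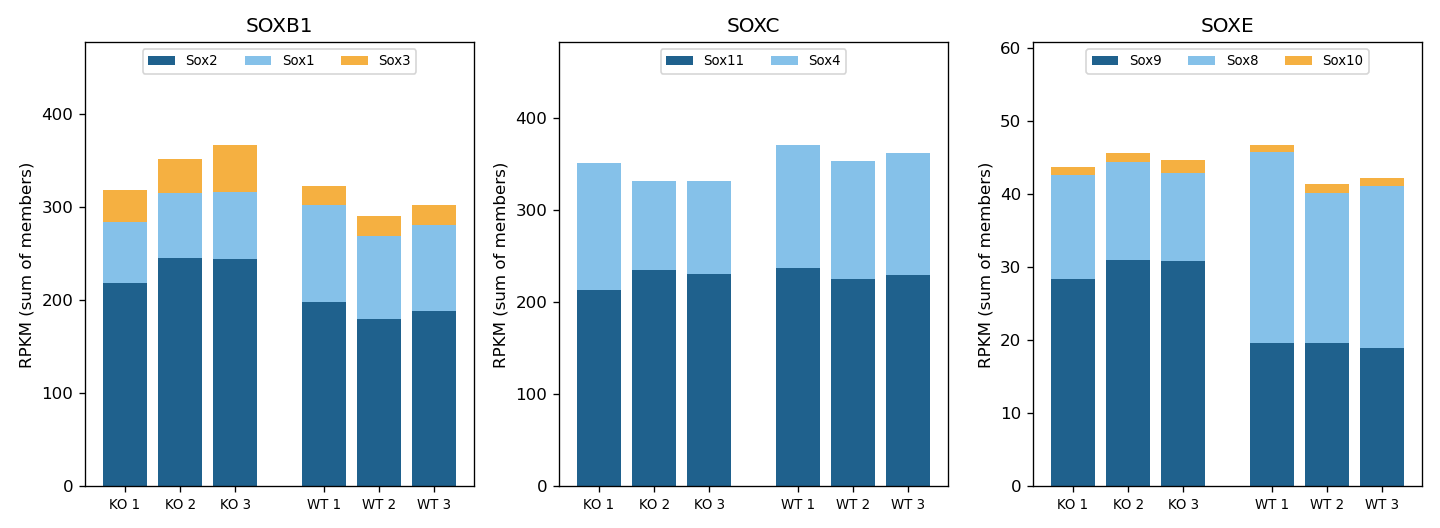
Stacked RPKM (y axis, from 0) of the listed members of SOXB1, SOXC (without Sox12) and SOXE in each KO library (left) and each WT library (right). The height of the SOXE bars overlaps between groups while the Sox9 part is larger and the Sox8 part smaller in KO 1 to 3, and within SOXB1 the Sox1 part is smaller in KO 1 to 3.

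Sox4 and Sox11, the listed SOXC genes, act in newborn neurons and did not pass the test. Sox12, a SOXC gene outside the list, rose and is given below. Sox11 (ENSMUSG00000063632, GRCm38 chromosome 12, 27334264 to 27342574) had the highest CPM of the 10, with 1773.5, 1953 and 1915 CPM in KO 1 to 3 and 1969, 1869 and 1909 CPM in WT 1 to 3. The groups overlapped, and the 95% interval of the fold ran from 0.886 to 1.09 (log2 fold change -0.03, edgeR adjusted p = 0.804). Sox4 (ENSMUSG00000076431, GRCm38 chromosome 13, 28948919 to 28953713) had 657, 462 and 484 CPM in KO 1 to 3, against 641, 613 and 632 CPM in WT 1 to 3. KO 1 was the highest of the 6 libraries, while KO 2 and KO 3 lay below all WT libraries. Over the 3 libraries per group the log2 fold change of Sox4 was -0.23 (SE 0.12, edgeR adjusted p = 0.182). Without KO 1 it was -0.41 (edgeR adjusted p = 2.54e-05), and with the Y-linked share as a covariate it was -0.34 (edgeR adjusted p = 0.011). Both fits called more genes of all kinds than the main fit. They called 3752 higher and 3804 lower without KO 1, and 2973 and 3283 with the covariate, against 1758 and 1897. The noncoding gene Gm26735 covers 54.6% of the Sox4 exon on the other strand and was given 1 count over all 6 libraries. With the strand setting not known, this count does not show whether reads of the overlap were kept for Sox4. The RPKM of Sox4 divides by its whole exon, and any reads lost there would lower it. The RPKM ratio of Sox11 over Sox4 was 1.56, 2.44 and 2.28 in KO 1 to 3 and 1.77, 1.76 and 1.74 in WT 1 to 3 (exact two-sided permutation p = 0.4).

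Sox5, the SOXD gene of the set (ENSMUSG00000041540, GRCm38 chromosome 6, 143828425 to 144781977), did not pass. It had 94.6, 84.0 and 84.9 CPM in KO 1 to 3, against 97.8, 89.4 and 88.8 CPM in WT 1 to 3. The groups overlapped, and the 95% interval of the fold ran from 0.862 to 1.06 (log2 fold change -0.07, edgeR adjusted p = 0.496). Sox5 has 14 annotated transcripts, and the counts do not separate its long and short forms.

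Related SOX genes share stretches of coding sequence, so reads that fall wholly within a shared run could come from either gene. Among the 45 pairs of members, the longest identical run between annotated transcripts was 48 bases. The longest run of each of the 3 leading pairs is shown, for Sox4 and Sox11, Sox1 and Sox3, and Sox9 and Sox10. It is the longest stretch with no base that tells the genes of a pair apart. It sets no bound on exchanged reads, because the bases beside it are similar too. Capitals mark the identical bases, and lower case the 12 coding bases on either side.
Sox4: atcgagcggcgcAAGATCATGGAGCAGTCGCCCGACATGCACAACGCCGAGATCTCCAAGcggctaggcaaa
Sox11: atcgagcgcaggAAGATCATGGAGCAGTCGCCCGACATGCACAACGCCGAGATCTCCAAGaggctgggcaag
Sox1: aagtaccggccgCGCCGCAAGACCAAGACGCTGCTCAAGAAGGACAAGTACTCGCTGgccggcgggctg
Sox3: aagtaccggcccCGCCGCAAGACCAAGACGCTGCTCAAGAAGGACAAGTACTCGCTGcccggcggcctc
Sox9: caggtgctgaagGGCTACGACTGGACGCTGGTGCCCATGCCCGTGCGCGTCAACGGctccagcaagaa
Sox10: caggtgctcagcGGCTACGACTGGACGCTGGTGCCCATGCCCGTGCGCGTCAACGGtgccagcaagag
The runs were 48, 45 and 44 bases long, and 0 pairs shared a run of 50 bases. The sequences are those of the GENCODE M21 transcripts. The sources at hand do not state the read length.

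By level per length, the order differed between the groups. In pools labelled KO it was Sox2 (236 ± 15.6 RPKM), Sox11 (226 ± 11.4), Sox4 (111 ± 22.3), Sox1 (69.2 ± 2.74), Sox3 (40.6 ± 9.25), Sox9 (30.1 ± 1.49), Sox21 (24.2 ± 1.16), Sox8 (13.2 ± 1.10), Sox5 (6.11 ± 0.410) and Sox10 (1.40 ± 0.398). Only Sox2 and Sox11 overlapped as neighbours there. In WT pools it was Sox11 (230.5 ± 6.01 RPKM), Sox2 (189 ± 9.21), Sox4 (131 ± 2.96), Sox1 (95.6 ± 8.10), Sox8 (22.9 ± 2.84), Sox21 (20.9 ± 1.28), Sox3 (20.9 ± 0.911), Sox9 (19.4 ± 0.405), Sox5 (6.40 ± 0.350) and Sox10 (1.17 ± 0.138). There the ranges of Sox8, Sox21 and Sox3 overlapped. Lengths were those of all annotated exons, which lowers the RPKM of Sox5, with its many transcripts, relative to the single-exon genes.

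Of 8 other SOX genes tested, 3 rose and 5 did not pass, beside 9.72% of all genes tested that rose. Sox14, of group B2, had 1.5 ± 0.316 CPM in pools labelled KO and 0.613 ± 0.1 CPM in WT pools (log2 fold change 1.31, SE 0.23, edgeR adjusted p = 0.00628). Sox12, the third SOXC gene, rose 1.20-fold to 304 ± 22.4 CPM, against 253 ± 6.69 CPM in WT pools (edgeR adjusted p = 0.0212). Sox13, of group D, rose 1.24-fold to 24.1 ± 1.03 CPM, against 19.4 ± 0.398 CPM in WT pools (edgeR adjusted p = 0.0156). Sox6, the other SOXD gene and a factor of MGE interneurons, had 181 ± 26.6 CPM in pools labelled KO and 219 ± 8.04 CPM in WT pools (edgeR adjusted p = 0.0673). By library it had 211, 174 and 159 CPM in KO 1 to 3, against 226, 220 and 210 CPM in WT 1 to 3. Only KO 1 lay within the WT range. Sox7, Sox17 and Sox18, of endothelial cells, had edgeR adjusted p-values of 0.417, 0.164 and 0.617. Sox30, known from the testis, was at 0.511 ± 0.154 CPM in pools labelled KO and 0.467 ± 0.116 CPM in WT pools (edgeR adjusted p = 0.742).

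Partners and targets of SOX factors were read from 4 lists, beside 9.72% of all genes tested that were higher and 10.5% that were lower. Of 16 SOXB1 partners and progenitor genes 7 rose, 2 fell and 7 did not pass, with a median log2 fold change of 0.21. Those that rose included Nes, the intermediate filament nestin (1.59-fold, edgeR adjusted p = 0.00047), Hes1, a Notch effector (1.87-fold, 0.000563), and Shh, the hedgehog ligand (2.62-fold, 0.000683). Both genes of this list that fell encode POU factors, a class that binds DNA beside SOX2. Pou3f2 was 1.71-fold lower, with 114 ± 10.5 CPM in pools labelled KO and 196 ± 18.3 CPM in WT pools (edgeR adjusted p = 0.000593). Pou3f4 was 1.45-fold lower (edgeR adjusted p = 0.00124), while Pou3f1 (edgeR adjusted p = 0.745) and Pou3f3 (0.957) did not pass. Pou3f1, Pou3f3 and Pou3f4 were named after their values were seen.

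Of 15 tested SOX9 partners and glial or cartilage targets 3 rose, 7 fell and 5 did not pass, with a median of -0.38, so that 7 of the 10 called genes moved opposite to Sox9. Aldh1l1, an astrocyte enzyme gene, had 4.82 ± 1.69 CPM in pools labelled KO and 23.4 ± 1.44 CPM in WT pools, 4.83-fold lower (edgeR adjusted p = 0.000326). Nfix, a nuclear factor I gene, had 49.1 ± 8.16 CPM in pools labelled KO and 107 ± 7.16 CPM in WT pools (edgeR adjusted p = 0.000374). Fgfr3, a growth factor receptor gene of progenitors and astrocytes, rose with Sox9, with 130 ± 8.60 CPM in pools labelled KO and 83.3 ± 3.28 CPM in WT pools (edgeR adjusted p = 0.000347).

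Of 12 tested SOX10 partners and oligodendrocyte targets 1 rose, 3 fell and 8 did not pass, with a median of -0.01. Those called were 8.33% higher and 25% lower of the genes tested, so the share that rose was near that of all genes. Olig2, an oligodendrocyte and ventral progenitor factor, rose 1.38-fold to 160.3 ± 20.4 CPM (edgeR adjusted p = 0.0081). Olig1 was 1.31-fold lower (edgeR adjusted p = 0.0481), and Cspg4, of oligodendrocyte precursors and pericytes, was 1.68-fold lower (0.00732). Erbb3, a neuregulin receptor gene, was at 0.129 ± 0.0312 CPM in pools labelled KO and 0.43 ± 0.0677 CPM in WT pools (edgeR adjusted p = 0.0104). That call rests on few reads, 5, 6 and 6 counts in KO 1 to 3 and 18, 17 and 15 in WT 1 to 3. Of 12 neuronal targets and companions of SOXC 1 rose, 1 fell and 10 did not pass, with a median of -0.03, a share of 8.33% each way that was near that of all genes. Dcx, a microtubule protein of migrating neurons, was 1.36-fold lower (edgeR adjusted p = 0.0153), and Ina, a neuronal filament gene, rose 1.26-fold (0.0293). Prox1 (1.12-fold, edgeR adjusted p = 0.0696) and Tead2 (1.16-fold, 0.0763) did not pass. Tead2 had 266, 303 and 308 CPM in KO 1 to 3, against 275, 236 and 244 CPM in WT 1 to 3. Only KO 1 lay within the WT range.

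**Figure D4:**
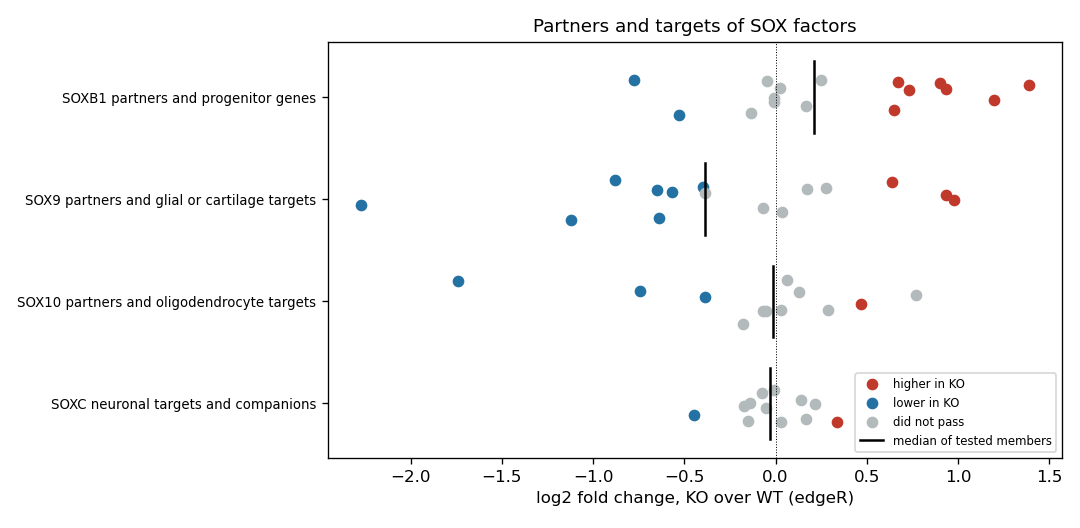
Log2 fold change, KO over WT (x axis), of each tested gene of the 4 lists of SOX partners and targets, with the vertical offset of points added only for legibility. The median (black line) is 0.21 for the SOXB1 list and -0.38 for the SOX9 list, and lies at -0.01 and -0.03 for the SOX10 and SOXC lists.

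Markers of cell types were read as well, but they are not separate from the lists above. Their lists are short, and the counts stand beside 9.72% of all genes tested that were higher and 10.5% that were lower. Nes, Vim, Fabp7, Pax6, Hes1 and Hes5 are radial glia markers and also in the SOXB1 list. The radial glia markers Fabp7 and Slc1a3 are also in the SOX9 list, and Pdgfra is in both the SOX9 and the SOX10 list. All the oligodendrocyte precursor markers are also in the SOX10 list. Tubb3, Dcx, Stmn2 and Map2 are neuron markers and also in the SOXC list. Of 8 markers of radial glia, the progenitors of the ventricular zone, 7 were higher and 1 was lower (Slc1a3). Their summed level was 2222 to 2648 CPM in pools labelled KO and 1467 to 1528 CPM in WT pools. Of 8 markers of postmitotic neurons 3 were lower and 5 did not pass, with sums of 4815 to 5085 CPM in pools labelled KO and 5392 to 5545.5 CPM in WT pools. Of 6 cortical markers 4 were higher, with sums of 68.0 to 101 CPM in pools labelled KO and 34.8 to 57.0 CPM in WT pools. Of 6 oligodendrocyte precursor markers 1 was higher and 2 were lower, with sums of 199 to 236 CPM in pools labelled KO and 183 to 192 CPM in WT pools. Most of that sum was Olig2, also a ventral progenitor factor, with 160.3 ± 20.4 CPM in pools labelled KO and 116 ± 4.63 CPM in WT pools. Olig1 and Cspg4 were the lower ones. Endothelial markers (2 of 6 lower), pericyte markers (4 of 4 lower) and microglia markers (2 of 5 lower) summed to 122 to 147, 66.3 to 95.6 and 21.3 to 27.4 CPM in pools labelled KO, and to 166 to 168, 108 to 111 and 28.8 to 30.6 CPM in WT pools. Red blood cell markers (2 of 7 higher and 2 lower) summed to 986 to 1567 CPM in pools labelled KO and 658 to 719 CPM in WT pools. Most of the KO sum was Hbb-y (812 ± 208 CPM, against 133 ± 24.1 CPM in WT pools), and Hba-x was higher too. Hbb-bs (72.1 ± 14.2 CPM in KO, 210 ± 1.43 CPM in WT) and Hbb-bt were lower. Hba-a1, Hba-a2 and Alas2 did not pass, so the sum does not describe the list as a whole. Except Foxd3, no marker of these lists was at 0 in all libraries. The part of cell make-up in the changes of the SOX genes was not tested.

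Over the 6 libraries, the genes with the pattern most like that of Sox9 were Fgfr3, Glipr2 and Hint2. Their log2 CPM, centred on its mean, differed from that of Sox9 by a root mean square of 0.0431, 0.0489 and 0.0513, among 12982 protein-coding genes with a mean of at least 1 CPM. Those most like Sox8 were Gfpt2 (0.0571), Zeb2 (0.064) and Cdk19 (0.0707). Zeb2, a zinc finger factor of interneuron development, had 148 ± 13.3 CPM in pools labelled KO and 258 ± 14.1 CPM in WT pools (log2 fold change -0.81, SE 0.07, edgeR adjusted p = 0.000273). With 6 libraries in 2 groups, these lists reflect mostly the difference between the groups.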

How the data were processed

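Raw counts of reads per gene were deposited by the authors for 6 libraries and entered all tests. The submitters' processing notes name Trimmomatic 0.36, STAR 2.5.2b, featureCounts, Subread 1.5.2, DESeq2 and the build GRCm38. The annotation release used for counting is not given in these notes. A normalized table was not used here.

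GENCODE M21 (GRCm38) gave symbols, positions and exon lengths, and matched 49056 of 49315 IDs. RefSeq (GRCm38.p6) gave promoter windows of 300 bases for 7 of the 10 members (not Sox3, Sox9 and Sox10). The 18079 genes that passed filterByExpr (minimum count 10, minimum total 15) were fitted in edgeR 4.0.16 (R 4.3.3) with TMM factors, a robust quasi-likelihood test and Benjamini-Hochberg adjustment at 0.05. Standard errors are the log2 fold change over the square root of F. Library totals were 33188277 to 55552298 counts, and members had 129 to 105686 counts per library. Intervals rest on the spread between pools. In data simulated for this comparison (17824 genes), the fit recovered 66% of 100 genes with a 1.5-fold change. It recovered 95% of 100 with a 2-fold change, and 8% of calls were false. The changed genes were drawn from well counted ones, all others were unchanged, and no library was made to deviate as KO 1 does. These rates may therefore not hold for the measured data. Ratios were compared with exact permutation tests (scipy 1.17.1).

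The members and lists were chosen with earlier results of these data known. Named genes were the members, the other SOX genes tested, the 4 genes per list with the smallest p, Prdm16, and the 3 genes most like the member with the smallest p in each direction (log2 CPM, prior count 2); some listed genes are counted but not reported here by name. Alternatives were other scalings and filters, DESeq2 1.42.0, limma 3.58.1 voom, no robust spread, a replicate block, a Y-linked share covariate, removal of the trend on exonic length, and each library left out.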

Additional observations from a re-analysis of the deposited data

How the results depend on the processing

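Over 17 alternatives and 10 genes, 160 of 170 results kept their direction and side of the threshold, or did not pass in either case. The call was lost in 8, all of Sox2 or Sox21, gained in 2, both of Sox4, and reversed in 0. Sox1, Sox3, Sox8 and Sox9 kept their calls in each of the 17. Sox5 ranged from -0.12 to 0.11 and Sox11 from -0.05 to 0.08 on the log2 scale, so neither had a fixed direction. Leaving out 1 library gave 2 to 4 SOX genes higher and 2 to 3 lower, and over all genes 464 to 3752 higher and 727 to 3804 lower, against 1758 and 1897 with all libraries. The highest counts over all genes came without KO 1. The Y-linked share as a covariate gave 2973 higher and 3283 lower genes. With the replicate block 862 genes were higher and 1219 lower, with 3 SOX genes higher and 2 lower, and Sox21 was no longer called (edgeR adjusted p = 0.0988). Libraries of the same number had correlations of their deviations from the group means of -0.0756, -0.123 and 0.0264, so the block was not taken as a pairing. The cause of these shifts was not tested. Of the 10 genes Sox10 had the fewest counts, 129 to 313 per library, and whether depth kept it from being called was not tested.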
